A study of Mus musculus with 2 samples.

Results

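HL-1 is a contracting mouse cell line that descends from atrial cardiomyocytes transformed by a viral large T antigen under the atrial natriuretic factor promoter. Chromatin of these cells, harvested at their highest density, was precipitated with an antibody against acetylated histone H3 (H3ac) or against Srf, with 1 library for each antibody and no genotype or treatment to compare. The subject here is the set of H3ac peaks that are narrow and stand alone: 1644 of the 10486 called H3ac peaks, or 15.7% of the list. They were chosen by position and width within the H3ac list itself: a start at 3100000 or beyond on the chromosome, a width under 1000 bp, and more than 100 kb between the peak and every other H3ac peak of its chromosome. Another 7671 narrow H3ac peaks met the same limits of start and width but had an H3ac peak within 100 kb; they are called neighboured narrow peaks below. A further 1138 peaks were 1000 bp or wider, and 33 began before 3100000.

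Acetylation of lysines in the tail of histone H3 loosens chromatin and is laid down by acetyltransferases that transcription factors bring to promoters and enhancers. Active promoters tend to carry broad acetylation, and distant enhancers carry it in short stretches. Srf (serum response factor) binds as a dimer to a short DNA element of muscle and growth-response genes, alone or with partners such as myocardin and the ternary complex factors, and some of these partners recruit acetyltransferases. Because the rule used only the H3ac list, the widths and spacing of the isolated narrow peaks are a description. The Srf list is the measure that the rule did not use, though the sets were chosen with earlier results of these data known. Neither list holds a score or a read count, so depth and peak strength are unknown; positions are those of the lists, in mm9.

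In width the isolated narrow peaks resembled narrow peaks that have neighbours. Their median width was 176 bp (quartiles 131 and 267.25 bp, range 38 to 996 bp), and that of the neighboured narrow peaks was 172 bp (quartiles 128.5 and 249 bp). Peaks from 100 to under 200 bp made up 47.0% of the isolated set and 49.1% of the neighboured one, and those of 350 bp or more made up 18.2% and 15.6%. The most frequent exact widths were the narrowest in the list, 39 bp (25 isolated peaks) and 38 bp (22), followed by 175 bp (16). Together these 47 peaks of 38 or 39 bp were 2.86% of the isolated set, beside 2.88% of the neighboured narrow peaks. All 1644 isolated peaks covered 399 kb.

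The share of peaks that stood alone was lowest in the narrowest class, with little between classes. Of the H3ac peaks under 100 bp, 16.2% were isolated (exact 95% interval 14.2% to 18.4%), and the share was 17.0% (15.9% to 18.1%) from 100 to under 200 bp. It was 18.2% (16.5% to 19.9%) from 200 to under 350 bp and 20.1% (18.1% to 22.2%) from 350 to under 1000 bp. Peaks of 1000 bp or more, which the width limit keeps out of the set, were isolated in 20.04% of cases (17.7% to 22.5%), which is 228 peaks. All intervals in this text reflect counting alone, as if each peak were drawn separately, and clustering of peaks makes them too narrow.

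**Figure D1:**
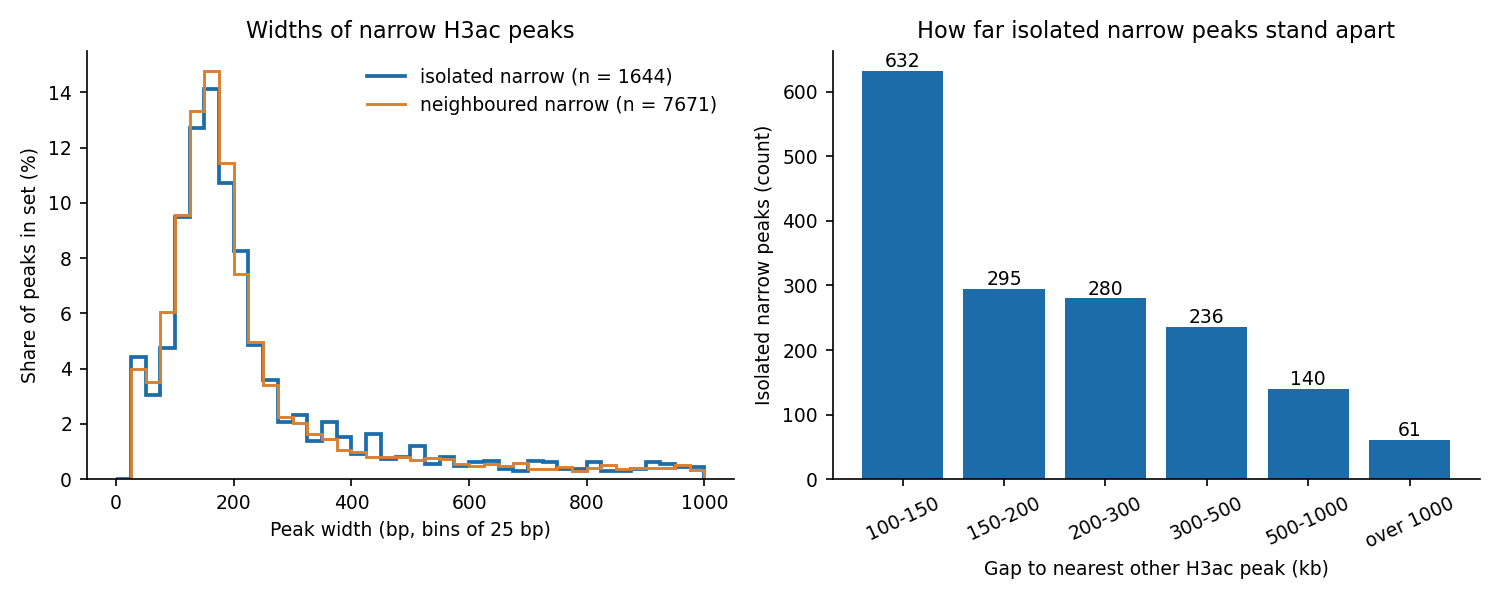
Left, share of peaks (%) by width in bins of 25 bp for the 1644 isolated and the 7671 neighboured narrow H3ac peaks; both sets peak between 100 and 200 bp and have a small second mode below 50 bp. Right, number of isolated narrow peaks by gap (kb) to the nearest other H3ac peak; 632 lie just above the limit, at 100 to 150 kb, and 61 have no other H3ac peak within 1 Mb.

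Many of these peaks lay not far above the limit, 632 (38.4%) of them with a gap of at most 150 kb. The gap to the nearest other H3ac peak had a median of 176 kb (quartiles 127 and 318 kb); 717 peaks (43.6%) had a gap over 200 kb, 201 (12.2%) over 500 kb and 61 (3.71%) over 1 Mb. For the 1628 isolated peaks with an H3ac peak on either side, the median distance from flank to flank was 798 kb. The neighboured narrow peaks had a median gap of 19.0 kb. The stretches from the H3ac peak before to the H3ac peak after each isolated peak, merged where they met, added up to 1675 Mb, which is 65.6% of the 2553 Mb between the outermost H3ac peaks of the 20 chromosomes.

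Isolated peaks often followed each other, but the rule itself favours this. A peak next to an isolated one already has over 100 kb without H3ac on that side. The counts are therefore a description. Isolated narrow peaks were 15.7% of all H3ac peaks. The H3ac peak nearest to an isolated peak was itself isolated and narrow for 826 (50.2%), a neighboured narrow peak for 654 (39.8%) and a peak of 1000 bp or more for 163 (9.91%). Read along the chromosomes, 1168 isolated peaks (71.0%) stood in runs of 2 or more with no other kind of H3ac peak between them, and 60 runs held at least 5. The run with the most members had 13 and lay on chromosome 10 from 19869398 to 25080059. A run of 10 on the X chromosome, from 109484603 to 133403169, spread over 23.9 Mb, while a run of 9 on chromosome 5, from 105948520 to 107867275, took up only 1.92 Mb.

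Of the 5 most remote peaks, 3 lay on the X chromosome. A peak of 193 bp on the X chromosome from 119510739 to 119510932 had the widest gap, 6773585 bp to the nearest other H3ac peak and 10025983 bp to the nearest Srf peak. The next, also on the X chromosome, from 109484603 to 109484645, was only 42 bp wide and stood 6069717 bp from other H3ac peaks, yet it overlapped an Srf peak of 181 bp (109484575 to 109484756). On chromosome 5 a peak from 15440919 to 15441115 (196 bp) had a gap of 4945956 bp. One on chromosome 16 from 70314349 to 70314574 (225 bp) had 4750741 bp. The last of the 5 was again on the X chromosome, from 126284517 to 126284998 (481 bp), with 4308892 bp. Among them, the 42-bp peak was the only one with an Srf peak within 1 Mb.

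The share of isolated peaks followed how sparse a chromosome was in H3ac. On the X chromosome, which had 1.35 H3ac peaks per Mb, 91 of 215 (42.3%, interval 35.6% to 49.2%) were isolated and narrow. Chromosomes 18 and 13 came next, with 78 of 242 (32.2%, 26.4% to 38.5%) and 87 of 287 (30.3%, 25.05% to 36.0%), and their intervals overlap. Chromosome 11, the densest at 8.21 H3ac peaks per Mb, had 77 of 974 (7.91%, 6.29% to 9.78%), and chromosomes 8 and 7 had 8.88% and 9.21%. Over the 20 chromosomes this share and the H3ac density had a Spearman rho of -0.958 (Pearson r -0.842), which is given as a description: both come from the same list, and a denser list leaves fewer peaks alone by the rule itself. Per Mb, isolated peaks ranged from 0.470 on chromosome 7 to 0.890 on chromosome 18, a 1.89-fold range, while all H3ac peaks ranged 6.10-fold. This contrast is a description too, because the rule leaves fewer isolated peaks where H3ac is dense.

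**Figure D2:**
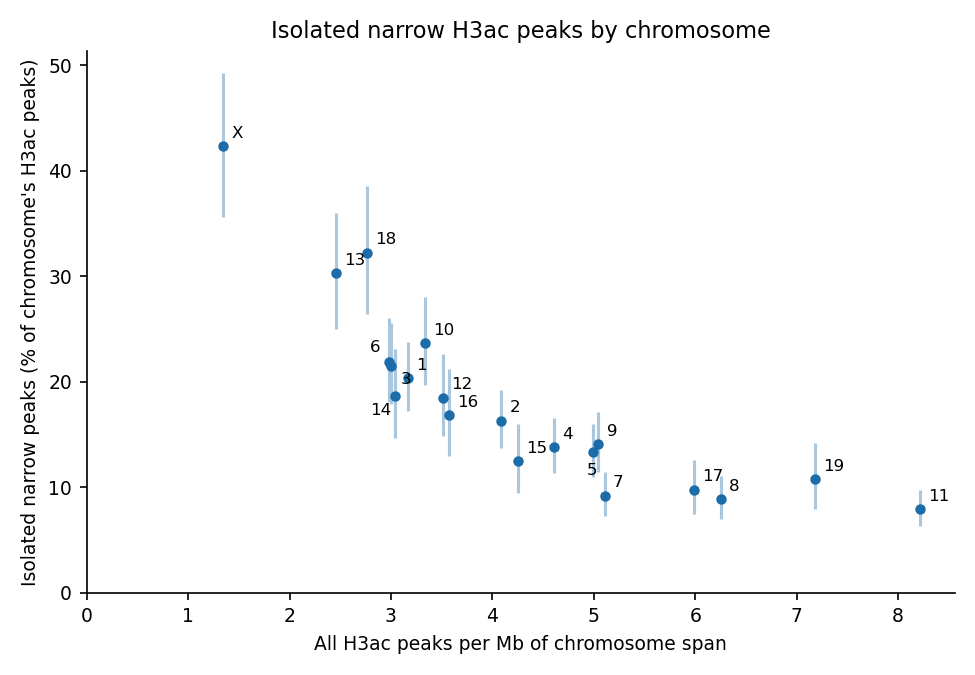
Isolated narrow peaks as a share (%) of each chromosome's H3ac peaks, against H3ac peaks per Mb of chromosome span; points are chromosomes and bars are exact 95% intervals. The X chromosome (42.3%) stands at the sparse end and chromosome 11 (7.91%) at the dense end.

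The question that both lists can answer is how often an H3ac peak without other H3ac around it lies at an Srf-bound site. Of the 1644 isolated narrow peaks, 49 overlapped an Srf peak by at least 1 bp, which is 2.98% (interval 2.21% to 3.92%). Another 67 had an Srf peak 1 to 500 bp away, so 116 (7.06%, 5.87% to 8.40%) were at or beside Srf. Over all H3ac peaks these shares were 5.25% and 10.6%, so the isolated peaks were below the list as a whole on both. Among neighboured narrow peaks, 355 overlapped Srf (4.63%, 4.17% to 5.12%) and 845 had it within 500 bp (11.0%, 10.3% to 11.7%). The isolated set was the lower: the difference, isolated minus neighboured, was -1.65 percentage points for overlap (Newcombe 95% interval -2.52 to -0.608) and -3.96 points within 500 bp (-5.31 to -2.46).

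The lower share within 500 bp held in every alternative run, with intervals below 0 wherever one was computed, though its size moved. The run that counted gaps up to 10000 bp (-8.94 points) is partly set by the rule. An isolated peak has no other H3ac peak within 100 kb that Srf could lie beside. Among neighboured narrow peaks, 34.8% had another H3ac peak within 10 kb. Without the 34 megabases that hold at least 8 Srf peaks, the difference within 500 bp was -2.28 points (-3.61 to -0.789). Only 16 of the 1644 isolated peaks lay in those megabases, and 6958 of the 7671 neighboured narrow peaks lay outside them. Outside them, 2.83% of isolated and 3.46% of neighboured peaks overlapped Srf, beside 2.98% and 4.63% over the whole sets. The difference in overlap was less stable: it was -1.03 points without chromosome 8 (interval -1.91 to 0.0279) and -0.638 points without those dense megabases (-1.47 to 0.369), and neither interval excluded 0. It was also -1.22 points (-2.38 to 0.390) when isolation was set at over 200 kb. It was smallest with only the Srf peaks of the median width or more (-0.387 points, -1.12 to 0.524) and with at least 50% of the H3ac peak covered (-0.352 points, -0.928 to 0.403), and these intervals include 0 as well. Chromosome by chromosome, the isolated peaks had the lower share within 500 bp on 17 of 20 chromosomes and the lower overlap on 13. Within 500 bp, chromosomes 7 (11.4% against 9.21%), 18 (7.69% against 6.43%) and 13 went the other way. The contrast was largest on chromosome 13, singled out after its values were seen. There 9 of 87 isolated peaks (10.3%) had Srf within 500 bp, against 1.75% of neighboured narrow peaks, and no interval was computed for this difference. All 20 chromosomes had at least 1 isolated peak that overlapped Srf, and no chromosome had more than 6.

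Among peaks near Srf, no difference between isolated and neighboured ones was resolved. Of the 116 isolated peaks with Srf within 500 bp, 42.2% (33.1% to 51.8%) overlapped it, and of the 845 neighboured ones 42.0% (38.7% to 45.4%). The difference was 0.230 points with an interval from -9.001 to 9.90. In width, the 131 Srf peaks within 500 bp whose nearest H3ac peak was isolated had a median of 192 bp, and the 889 whose nearest was a neighboured narrow peak had 182 bp. Another Srf peak within 10 kb was present for 22.1% of the former (15.4% to 30.2%) and 24.7% of the latter (21.9% to 27.7%), a difference of -2.61 points (-9.52 to 5.70).

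**Figure D3:**
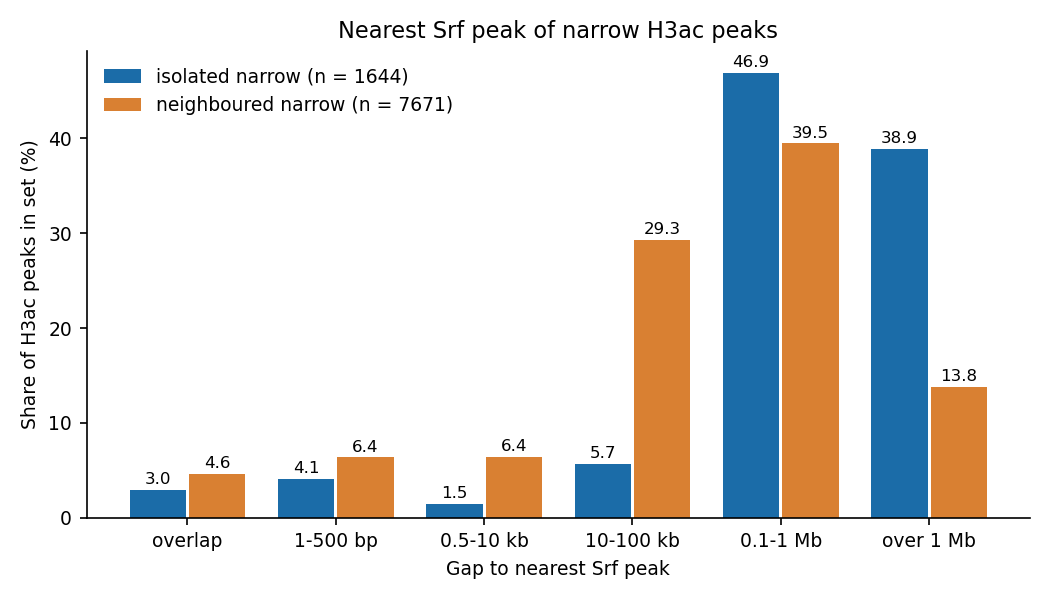
Share (%) of isolated and neighboured narrow H3ac peaks by gap to their nearest Srf peak. The isolated peaks have 3.0% at overlap and 4.1% at 1 to 500 bp, a low of 1.5% at 0.5 to 10 kb, and 85.8% beyond 100 kb.

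Away from the peak itself, Srf was scarce. Only 24 isolated peaks (1.46%) had their nearest Srf peak between 500 bp and 10 kb, fewer than the 67 that had it in the first 500 bp, and 93 (5.66%) had it between 10 and 100 kb. The other 1411 (85.8%) had no Srf peak within 100 kb, and 640 (38.9%) had none within 1 Mb. Among neighboured narrow peaks, 53.3% had none within 100 kb. Over all H3ac peaks, 41.4% had an Srf peak within 100 kb, beside 14.2% of the isolated narrow peaks. For isolated peaks of 1000 bp or more the share was 12.3% (8.32% to 17.3%), so the scarcity was not particular to narrow ones. Part of it is set by the rule, which leaves no other H3ac peak within 100 kb that an Srf peak could lie beside. The median gap to Srf was 666 kb for the isolated peaks and 120 kb for the neighboured ones.

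The number of Srf peaks per kb fell steeply with distance from an isolated peak. In the 100 bp outside the edges there were 36 Srf peaks, or 109 per 1000 isolated peaks per kb, counting both sides. This fell to 45.6 at 100 to 200 bp (15 Srf peaks) and was 51.7 at 200 to 300 bp (17). At 300 to 400 and 400 to 500 bp it was 12.2, with 4 Srf peaks in each band. From 500 to 1000 bp it was 6.69 (11 Srf peaks), and from 1 to 10 kb it was 0.608 (18). From 10 to 50 kb it was 0.479 (63) and from 50 to 100 kb 0.335 (55). Bands with 4 to 18 Srf peaks are coarse, and the step between 100 to 200 and 200 to 300 bp rests on 15 and 17.

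Around neighboured narrow peaks the same curve started higher and levelled off much earlier. There were 152 Srf peaks per 1000 peaks per kb within 100 bp, 5.70 from 1 to 10 kb and 4.23 from 50 to 100 kb, with the same Srf peak counted once for every H3ac peak near it. Part of this is set by the rule: within 100 kb of an isolated peak there is no other H3ac peak that an Srf peak could lie beside. Counting only Srf peaks more than 500 bp from any H3ac peak, the neighboured set still had 2.23 from 1 to 10 kb and 1.54 from 50 to 100 kb, above the 0.608 and 0.335 of the isolated set, which by the rule consist of such Srf peaks alone. At 500 to 1000 bp these values were 7.43 and 6.69. The isolated peaks thus had fewer Srf peaks per kb in each band listed from 1 to 100 kb.

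**Figure D4:**
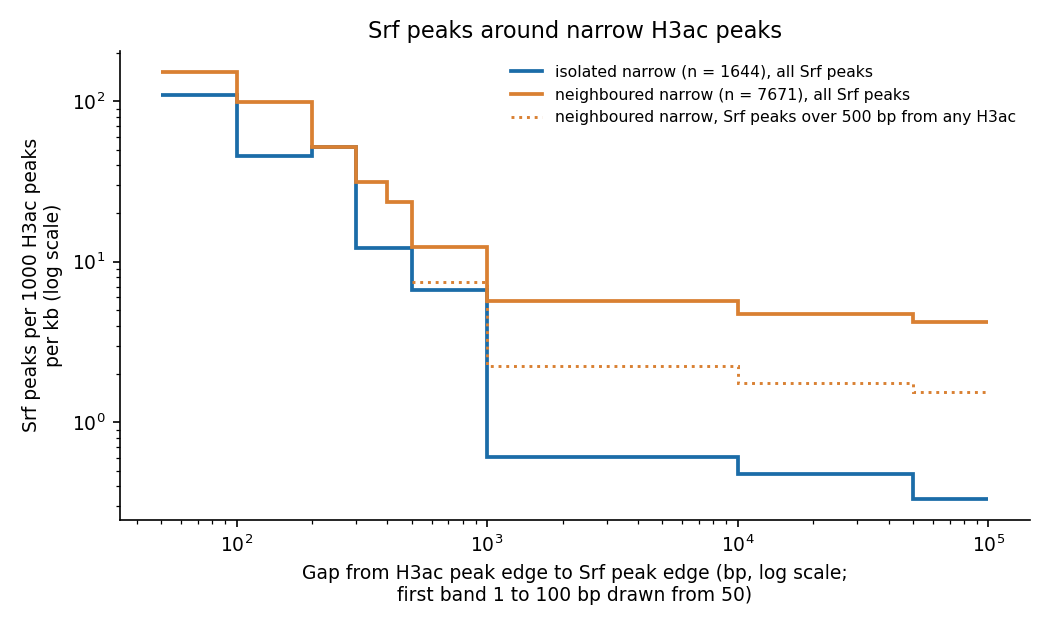
Srf peaks per 1000 narrow H3ac peaks per kb (log scale) by gap (bp, log scale) from the H3ac peak's edges, for isolated and neighboured sets; the dotted line counts only Srf peaks over 500 bp from any H3ac peak. The isolated set falls from 109 within 100 bp to 0.335 at 50 to 100 kb, and the neighboured set from 152 to 4.23.

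The comparison with neighboured peaks was repeated within classes of H3ac width. In the class from 100 to under 200 bp, 16 of 773 isolated peaks overlapped Srf (2.07%, 1.19% to 3.34%), against 4.01% of neighboured ones, a difference of -1.94 points (-2.98 to -0.545). From 200 to under 350 bp it was 8 of 370 (2.16%) against 5.16%, or -2.99 points (-4.57 to -0.733). From 350 to under 1000 bp it was 13 of 300 (4.33%) against 6.28%, or -1.94 points with an interval that includes 0 (-4.29 to 1.25). Below 100 bp the sign turned: 12 of 201 isolated peaks overlapped Srf (5.97%, 3.12% to 10.2%), against 4.13%, or 1.84 points (-1.04 to 6.14). Of those 12 overlaps, 6 were at peaks of 38 or 39 bp; at 40 to 99 bp, 6 of 154 isolated peaks (3.90%) overlapped Srf against 3.54%, or 0.355 points (-2.22 to 4.83). Whether the classes differ among themselves was not tested. Within 500 bp the isolated share was the lower in each of these 4 classes, and the interval excluded 0 from 100 to under 200 bp (-5.01 points, -6.91 to -2.77) and from 200 to under 350 bp (-4.67 points, -7.20 to -1.46).

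Overlap with Srf was highest, among the width classes, at the narrowest isolated peaks. Of the 47 isolated peaks of 38 or 39 bp, 6 overlapped an Srf peak (12.8%, 4.83% to 25.7%), against 43 of the 1597 wider ones (2.69%, 1.96% to 3.61%), a difference of 10.1 points (3.23 to 22.5) in a class singled out after its values were seen. The neighboured peaks of those widths overlapped in 14 of 221 cases (6.33%, 3.51% to 10.4%), and the 2 sets differed by 6.43 points with an interval from -1.45 to 19.1. Within 500 bp the shares at those widths were 7 of 47 (14.9%) for isolated and 32 of 221 (14.5%) for neighboured peaks, a difference of 0.414 points (-8.73 to 13.8). Short peaks can lie inside an Srf peak more readily by their width alone. Among the 49 overlapping isolated peaks, 10 were under 50 bp, and 8 of those lay wholly inside an Srf peak; the Srf peaks they met were 123 to 541 bp wide (median 279 bp). Of the other 39, 5 lay wholly inside the Srf peak, whose median width was 204 bp.

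**Figure D5:**
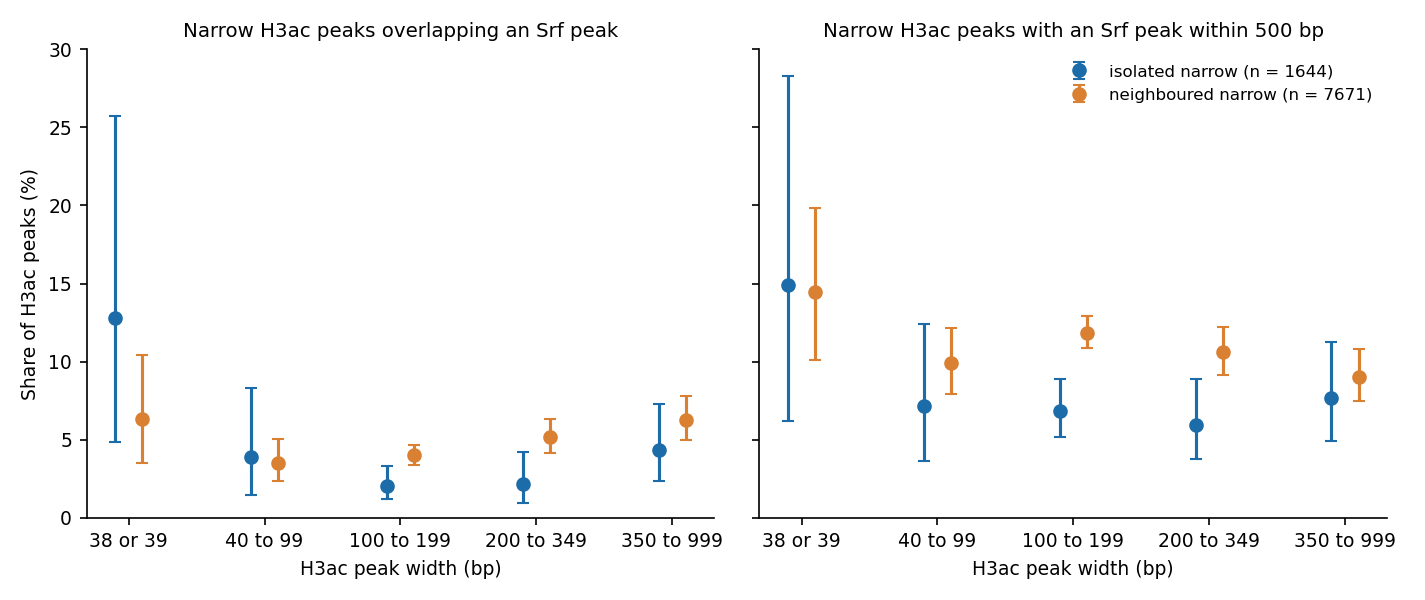
Share (%) of narrow H3ac peaks that overlap an Srf peak (left) or have an Srf peak within 500 bp (right), by H3ac width class, for isolated and neighboured peaks; bars are exact 95% intervals. From 100 bp upwards the isolated peaks lie lower in both panels, and at 38 or 39 bp the overlap is 12.8% for 47 isolated peaks and 6.33% for 221 neighboured ones.

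Examples of these short peaks show the arrangement. On chromosome 1 an isolated peak of 38 bp, from 197067924 to 197067962, lay inside an Srf peak of 450 bp (197067711 to 197068161). On chromosome 11 a 38-bp peak from 108873227 to 108873265 lay inside an Srf peak of 541 bp (108872903 to 108873444). Chromosome 13 had 3: from 100560929 to 100560967 in an Srf peak of 245 bp, from 3372440 to 3372479 in one of 541 bp, and from 74666736 to 74666779 at the end of one of 231 bp. These 3 were among the 6 overlapping isolated peaks of chromosome 13. On chromosome 18 the peaks from 40467869 to 40467917 and from 82390707 to 82390755, both 48 bp, lay inside Srf peaks of 341 and 313 bp. All of these were named after their values were seen.

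At the other end, the widest of the overlapping isolated peaks mostly enclosed or partly met smaller Srf peaks. Wide peaks can enclose an Srf peak more readily by their width alone. Over the 49 overlaps, 11 isolated peaks enclosed the Srf peak, 13 lay inside it and 25 met it in part. The widest isolated peak that overlapped Srf was on chromosome 14 from 79132132 to 79133114 (982 bp), 115993 bp from other H3ac, with an Srf peak of 152 bp (79132660 to 79132812) inside it. On chromosome 12 a peak from 35731526 to 35732469 (943 bp) overlapped 2 Srf peaks, of which that from 35731703 to 35731858 (155 bp) lay inside. On chromosome 2 the peak from 143990790 to 143991636 (846 bp) enclosed an Srf peak of 188 bp. The fourth differed: on chromosome 4 the peak from 79650112 to 79650791 (679 bp) lay inside an Srf peak of 2055 bp and 1437684 bp from other H3ac.

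The next in width showed both layouts. An isolated peak on chromosome 9 from 31367211 to 31367877 (666 bp) met an Srf peak of 211 bp at its lower end. On chromosome 17 the peak from 13498644 to 13499254 (610 bp) enclosed an Srf peak of 309 bp. A second peak of chromosome 12, from 103367035 to 103367623 (588 bp), enclosed one of 110 bp. On chromosome 4 the peak from 99495904 to 99496457 (553 bp) met an Srf peak of 185 bp at its lower end. On chromosome 14 the peak from 25598449 to 25598950 (501 bp) enclosed one of 198 bp, with another Srf peak within 500 bp. A peak on chromosome 10 from 21862235 to 21862704 (469 bp) overlapped 3 Srf peaks, the most among those named, and enclosed one of 202 bp; it stood inside the run of 13 isolated peaks on that chromosome.

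The remaining peaks of the 15 named were narrower. These 15 were the widest of the 49 that overlapped Srf, so their widths follow from how they were chosen. On chromosome 7 the peak from 132588220 to 132588680 (460 bp) overlapped 2 Srf peaks, and on chromosome 6 the peak from 50516235 to 50516651 (416 bp) met an Srf peak of 109 bp at its upper end. Close to the start of chromosome 4 a peak from 3501826 to 3502192 (366 bp) enclosed an Srf peak of 212 bp. On chromosome 13 the peak from 105607153 to 105607486 (333 bp) and an Srf peak of 198 bp began 1 bp apart, at 105607153 and 105607152. On chromosome 18 the peak from 67608530 to 67608781 (251 bp) enclosed an Srf peak of 168 bp. As a group, the 49 overlapping isolated peaks had a median width of 191 bp, and the 1595 others had 176 bp.

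The 67 isolated peaks beside but not on Srf were at most 500 bp from it by definition. The median gap was 101 bp; 33 lay within 100 bp, 13 between 100 and 200 bp, 15 between 200 and 300 bp and 6 beyond. The Srf peak came before the H3ac peak in genome order for 40 and after it for 27. Their median width was 165 bp, and that of the Srf peaks beside them 167 bp. Counting overlaps and near peaks together, 104 isolated peaks had 1 Srf peak within 500 bp, 10 had 2, and 2 had 3 or more, with 4 at most. In all, 131 of the 2190 Srf peaks (5.98%) had their nearest H3ac peak in this set and within 500 bp. For 889 Srf peaks the nearest was a neighboured narrow peak within 500 bp. Isolated narrow peaks were 15.7% of all H3ac peaks, and neighboured narrow peaks 73.2%.

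The 5 widest isolated peaks had no Srf peak within 200 kb, and the sixth was the 982-bp peak with Srf inside it. They were on chromosome 3 from 145883810 to 145884806 (996 bp), chromosome 9 from 32503015 to 32504010 (995 bp) and from 60642212 to 60643199 (987 bp), chromosome 3 from 103594578 to 103595563 (985 bp), and chromosome 8 from 89408347 to 89409331 (984 bp). Their nearest Srf peaks were 567273, 359260, 2033419, 407234 and 260422 bp away. Isolated peaks over the width limit were compared with the set. Of the 228 isolated peaks of 1000 bp or more, 10 overlapped Srf (4.39%, 2.12% to 7.92%) and 12 had it within 500 bp (5.26%, 2.75% to 9.01%). Isolated narrow peaks differed from them by -1.41 points (-4.98 to 0.791) and 1.79 points (-2.09 to 4.39), and both intervals include 0. The 910 wide peaks with an H3ac neighbour had an overlap of 11.8% (9.74% to 14.03%), an interval that does not meet that of the 228 isolated wide peaks.

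Values at the limits of the rule are given for orientation. The isolated peaks just over the gap limit had gaps of 100250 bp (chromosome 6, from 128150315 to 128150491) and 100424 bp (chromosome 12, from 4234101 to 4234231). Just under it was a pair on chromosome 2, from 51828352 to 51828544 and from 51928465 to 51928646, which stood 99921 bp apart. The widths just inside were 996 and 995 bp, and isolated peaks of 1003 and 1004 bp on chromosome 2, from 39045397 to 39046400 and from 17652404 to 17653408, were just outside. The first starts inside the limit were 3110002 on chromosome 12, a 95-bp peak that overlapped Srf, and 3201631 on chromosome 2. A single narrow peak with a gap over 100 kb was left out by its start, on chromosome 18 from 3005758 to 3005796 (38 bp), and it overlapped an Srf peak of 454 bp.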

How the data were processed

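Chromatin immunoprecipitation and sequencing of 1 library per antibody (H3ac and Srf) gave 2 lists of called peaks. The deposited lists hold an identifier, chromosome, start and end per peak, per the file headers, with no other value; the build is mm9, per the submitters' processing notes. What aligned the reads, called the peaks or served as control is not given in the sources used here. The depth per library is unknown, and with 1 library per antibody the variation between libraries was not measured. The intervals reflect the number of peaks alone.

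Members, comparison sets and width classes were chosen with earlier results of these data known. Gaps run between nearest edges, and shared or touching positions count as overlap. Shares have exact Clopper-Pearson 95% intervals and differences Newcombe 95% intervals; no p-value was computed, because there is no replicate. Where several Srf peaks met an H3ac peak, the one reaching deepest was described. Peaks named singly were the 15 members ranked first by closeness to Srf, the 5 widest, the 5 with the largest gap and those at the limits. All overlaps tie as closest and were ordered by decreasing width, so the 15 are the widest overlapping members. Others are marked as named later. Gene and promoter tables at hand followed another assembly, so no gene or sequence was assigned. Steps were tested on simulated lists and ran in Python 3.11.15, numpy 2.4.6, pandas 2.3.3, scipy 1.17.1, statsmodels 0.14.6 and matplotlib 3.10.9.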

Additional observations from a re-analysis of the deposited data

How the results depend on the processing

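The number of isolated narrow peaks depends on the limits: 3064 with a gap over 50 kb, 717 with over 200 kb, and 1344 to 1831 under the other settings. The overlap share fell to 1.46% when at least 50% of the H3ac peak had to be covered. The share within 500 bp was 4.26% with only Srf peaks of the median width or more, and 8.52% when gaps up to 10000 bp counted. The difference in overlap had an interval that included 0 with isolation over 200 kb (-1.22 points), with only the wider Srf peaks (-0.387), with 50% cover (-0.352), without chromosome 8 (-1.03) and without dense megabases (-0.638). The difference within 500 bp was -1.65 with only the wider Srf peaks, -8.94 with gaps up to 10000 bp and -2.28 without dense megabases. The value with gaps up to 10000 bp is partly set by the rule. Of 130 alternative values, 117 stayed within the reported interval (or within 1.5-fold for the count) and kept the call, and all 64 differences were below 0. Most of these alternatives left out a single chromosome and kept most of the same peaks, so the tally is a weak measure of stability. Leaving out each chromosome in turn gave -1.94 to -1.03 for overlap and -4.35 to -3.32 within 500 bp. Weighting the neighboured peaks to the members' chromosomes gave -1.32 and -2.89. The weightings, the leaving out of chromosomes and dense megabases, and the limit of 400 bp on Srf width were chosen after seeing the data. Apart from the wider definitions and smaller lists, which change counts by construction, causes were not tested. No paired analysis was possible because each antibody has 1 library and no result comes from a test between samples. Unknown read depth limits both lists.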
